A study of Mus musculus with 10 samples.

Results

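The 10 whole-ovary RNA libraries of this mouse study were divided into 5 oocyte-rich and 5 oocyte-poor libraries, regardless of genotype. The libraries were chosen by an oocyte score, the plain mean level of 15 genes that the oocyte expresses: Zp1, Zp2, Zp3, Gdf9, Bmp15, Nobox, Nlrp5, Ooep, Tle6, Khdc3, Padi6, Zar1, Npm2, Dppa3 and Btg4. The 5 libraries with the highest score were called oocyte-rich and the other 5 oocyte-poor. Because the libraries were selected on their own measured levels, every difference between the 2 classes below is a description with no test, and nothing is supported with it.

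The study sequenced RNA of entire ovaries, 5 labelled control and 5 labelled Uba3 cKO, taken from mice at 3 weeks of age without hormone stimulation, on a background given as C57/Bl6/N;129SvEv7 strain. Its title concerns neddylation, mitochondrial transcription and oocyte quality; Uba3 codes for the catalytic partner in the heterodimer that starts neddylation, the attachment of the small protein NEDD8 to cullins and other targets. The labels do not give the Cre driver, the cells in which Uba3 was deleted, the deleted exons, or whether each ovary came from its own animal, so p-values measure only the spread between these samples. The oocyte-rich class held 2 control and 3 Uba3 cKO libraries, and the oocyte-poor class 3 control and 2 Uba3 cKO libraries.

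An ovary at this age contains oocytes at every stage from the primordial follicle to the early antral follicle, each enclosed by granulosa cells and set in stroma, theca and vessels. The growing oocyte transcribes a large store of messages, many translated only during meiotic maturation or after fertilisation, and then becomes transcriptionally quiet. In RNA from a whole ovary, fewer oocytes, smaller oocytes and less RNA per oocyte cannot be told apart, and a level depends on the share of RNA that all other cells contribute.

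Zona genes are known targets of FIGLA, an oocyte transcription factor of the family that binds the E-box CANNTG, and Gdf9 and Bmp15 of NOBOX, which binds TAATTG. The libraries were ranked by the score genes, which largely fixes that these genes are high together, and shared regulation was not tested. The 250 bases before the annotated start of 4 score genes with different products are shown. They are credited to RefSeq, build GRCm38.p6 (the study's files were made on GRCm39), and read 5′ to 3′ on the gene's strand with each CANNTG in capitals. Zp3 lies at chr5:135979855-135980104 on the + strand, Nobox at chr6:43309555-43309804 on the - strand, Zar1 at chr5:72581085-72581334 on the - strand and Khdc3 at chr9:73102148-73102397 on the + strand.
Zp3: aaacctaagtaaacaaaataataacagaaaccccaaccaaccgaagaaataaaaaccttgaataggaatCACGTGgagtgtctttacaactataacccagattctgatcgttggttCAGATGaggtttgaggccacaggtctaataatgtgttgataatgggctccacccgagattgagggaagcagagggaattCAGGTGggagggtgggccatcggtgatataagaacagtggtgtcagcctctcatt
Nobox: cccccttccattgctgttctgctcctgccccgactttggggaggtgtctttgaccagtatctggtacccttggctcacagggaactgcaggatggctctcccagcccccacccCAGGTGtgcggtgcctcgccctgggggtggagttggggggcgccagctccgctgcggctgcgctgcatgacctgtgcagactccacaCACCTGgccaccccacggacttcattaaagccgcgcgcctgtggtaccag
Zar1: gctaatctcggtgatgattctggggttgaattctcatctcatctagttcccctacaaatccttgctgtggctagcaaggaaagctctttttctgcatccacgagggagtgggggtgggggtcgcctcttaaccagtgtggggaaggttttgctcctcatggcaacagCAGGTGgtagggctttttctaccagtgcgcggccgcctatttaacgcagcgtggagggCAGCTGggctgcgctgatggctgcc
Khdc3: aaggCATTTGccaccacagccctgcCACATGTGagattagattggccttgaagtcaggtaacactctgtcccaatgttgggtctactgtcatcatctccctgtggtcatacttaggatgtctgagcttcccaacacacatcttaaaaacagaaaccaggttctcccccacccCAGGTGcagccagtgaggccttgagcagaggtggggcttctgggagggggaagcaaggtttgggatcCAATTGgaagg
The search found 3 CANNTG matches in Zp3, 2 in Nobox, 2 in Zar1 and 5 in Khdc3, of which 2 overlap each other in the latter. Zp1, Zp2, Gdf9, Npm2 and Dppa3 had no promoter in the table and were not searched. Of the 15 score genes 10 had a promoter in the table, and 10 of 10 held at least 1 CANNTG, a palindromic pattern that reads alike on both strands. The same share was 71.6% (197 of 275) among the genes higher in oocyte-rich libraries by the rule given below, 50.3% (73 of 145) among the lower genes and 57.6% among all genes compared. In all 27025 promoters of the table, windows of the same length, it was 66.0%. TAATTG, searched on both strands, was present in 10% of the score genes' promoters (Ooep), 5.46% of the higher genes, 8.28% of the lower genes and 4.37% of all genes compared. The promoter of Bmp15, named above as a NOBOX target, held 0 matches. The higher genes also had a higher GC content of the transcript (below), and base composition was not matched in this comparison.

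The deposited values are normalised levels on a log2 scale, so a difference of 1 log2 unit is a doubling. The depth of the libraries is unknown from these values, and differences of genes at low level may be understated. Values of single libraries are given below in the order of falling oocyte score: control 3, Uba3 cKO 1, Uba3 cKO 4, control 2 and Uba3 cKO 2 for the oocyte-rich class, then control 5, control 4, control 1, Uba3 cKO 3 and Uba3 cKO 5 for the oocyte-poor class.

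The score was 11.04, 11.03, 10.99, 10.96 and 10.87 in the oocyte-rich libraries and 10.68, 10.42, 10.40, 10.39 and 10.17 in the oocyte-poor libraries. The class means were 10.98 ± 0.067 and 10.41 ± 0.18 (SD, n = 5 each), a difference of 0.57 or 1.48-fold, and the whole range was 0.86 or 1.82-fold. The last library inside the oocyte-rich class, Uba3 cKO 2, stood 0.19 above the first outside it, control 5. A wider gap of 0.26 followed between control 5 and control 4, so control 5 lay between the 2 classes. Scaling each score gene to unit variance, or scoring by the 107 other oocyte genes, divided the libraries in the same way. The plot of the score by library shows both genotypes on each side of the line.

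**Figure D1:**
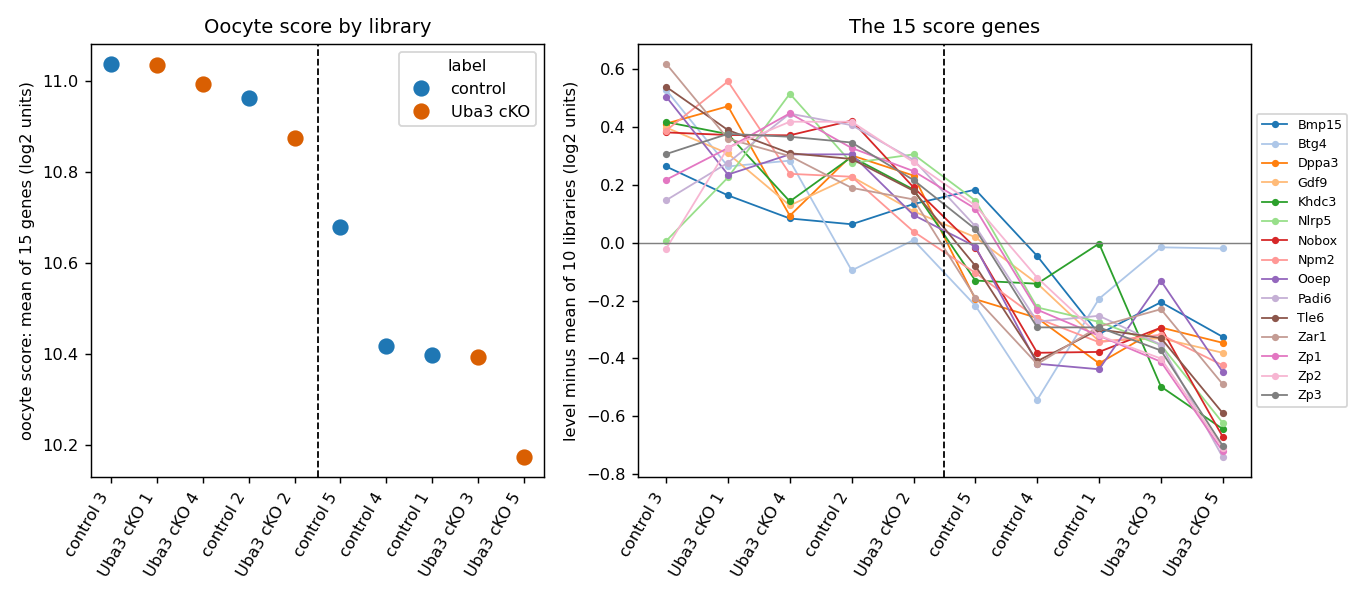
Left: oocyte score (log2 units) of each library in falling order; blue points are control and orange points Uba3 cKO libraries, and the dashed line divides the 5 oocyte-rich from the 5 oocyte-poor libraries. Right: level of each of the 15 score genes minus its own mean over the 10 libraries; most lines lie above 0 left of the dashed line, and 13 of 15 have their lowest point in Uba3 cKO 5.

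All 15 score genes had the higher mean in the oocyte-rich class, which their choice fixed, and the differences ran from 0.28 (Bmp15) to 0.70 (Nobox). For 11 of the 15 the 2 classes did not overlap; Nlrp5, Zp2, Btg4 and Bmp15 overlapped. The genes were not high in the same order of libraries. Control 3 was highest for 7 of them (Gdf9, Bmp15, Ooep, Tle6, Khdc3, Zar1 and Btg4), Uba3 cKO 1 for 3 (Zp3, Npm2 and Dppa3), Uba3 cKO 4 for 3 (Zp1, Nlrp5 and Padi6) and control 2 for 2 (Zp2 and Nobox). Uba3 cKO 5 was lowest for 13 of 15.

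Zp3 encodes a zona pellucida glycoprotein of the egg coat and had levels of 12.17, 12.24, 12.23, 12.21 and 12.08 in the oocyte-rich libraries, against 11.91, 11.57, 11.57, 11.49 and 11.16. The oocyte-rich libraries spanned 0.16 for this gene, whereas the oocyte-poor ones spread from control 5, nearest to the oocyte-rich class, down to Uba3 cKO 5. Zp1 and Zp2, 2 further coat proteins, differed by 0.63 and 0.57. Nobox, a homeobox factor needed for early follicle growth, measured 9.30, 9.30, 9.29, 9.35 and 9.12 against 8.91, 8.54, 8.54, 8.63 and 8.25, a difference of 0.70 or 1.62-fold. It had the widest difference of the 15, with the same low library.

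Among the genes of the subcortical maternal complex, a protein assembly under the egg membrane needed for early cleavage, Tle6 differed by 0.68, Ooep by 0.58, Khdc3 by 0.57 and Nlrp5 by 0.53. Padi6, required for the lattices of the egg cytoplasm, differed by 0.63. Khdc3 was at 8.17, 8.13, 7.90, 8.05 and 7.94 against 7.62, 7.61, 7.75, 7.26 and 7.11, so its 2 lowest libraries were both Uba3 cKO. Zar1, which binds stored maternal messages, was at 11.98, 11.72, 11.66, 11.55 and 11.51 against 11.17, 10.94, 11.07, 11.13 and 10.87. Here control 3 stood highest and the oocyte-poor libraries lay close together.

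The secreted growth factors Gdf9 and Bmp15, which act on granulosa cells, differed by 0.47 and 0.28. Bmp15 measured 11.31, 11.21, 11.13, 11.11 and 11.18 against 11.23, 11.00, 10.73, 10.84 and 10.72: control 5 was above 4 of the 5 oocyte-rich libraries. The 2 chromatin-associated egg proteins Npm2 and Dppa3 differed by 0.58 and 0.60. Btg4, an adaptor for removal of maternal messages at maturation, measured 9.38, 9.11, 9.13, 8.75 and 8.86 against 8.63, 8.31, 8.66, 8.83 and 8.83. Its 2 lowest-scoring Uba3 cKO libraries were above control 2, and among Uba3 cKO libraries alone its difference was 0.20, against 0.54 among control libraries.

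Beyond the score, 15614 genes whose mean reached the log2 of 10 were compared, with the score genes set aside. A gene was counted where its 5 oocyte-rich and 5 oocyte-poor libraries did not overlap and the means differed by at least 0.25 log2 units (1.19-fold). By this rule 376 genes (2.41%) were higher and 184 genes (1.18%) were lower in the oocyte-rich libraries. Without the minimum difference, 512 genes were higher and 502 lower with no overlap. The score that set the classes was measured in the same libraries, so nothing is read from these shares. With control 3 left out the counts were 450 and 176, of which 342 and 121 were among the genes counted with all libraries.

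**Figure D2:**
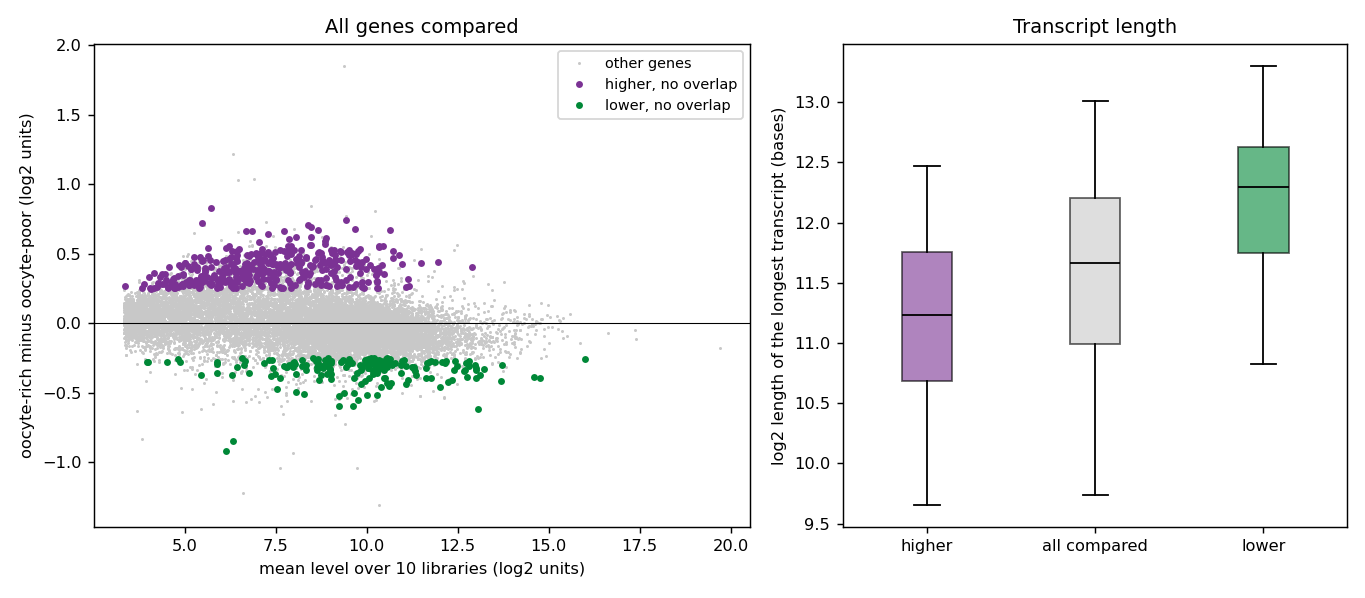
Left: mean level over the 10 libraries against the oocyte-rich minus oocyte-poor difference (log2 units) for 15614 genes, with the 376 higher genes in purple and the 184 lower genes in green. Right: log2 length of the longest annotated transcript (box, quartiles with the median; whiskers, the 5th to 95th percentile); the higher genes are shorter and the lower genes longer than all genes compared, with medians of 2412, 5018 and 3251 bases.

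Oocyte genes that had no part in the score were described in 9 lists with 118 members, of which 115 were in the table and 107 reached the minimum mean. Of these 107, 88 had the higher mean in the oocyte-rich libraries and 19 the lower, with a median difference of 0.37 against -0.0046 over all genes compared. By the rule 40 of the 107 (37.4%) were higher and 0 lower, against 2.41% and 1.18% of all genes compared. These 2 shares of all genes also stand against the counts of the single lists below. The lists were drawn up with earlier results of these data known. All 9 medians were above 0; the smallest belonged to the maturation kinases (0.023) and the meiotic chromosome axis (0.21).

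**Figure D3:**
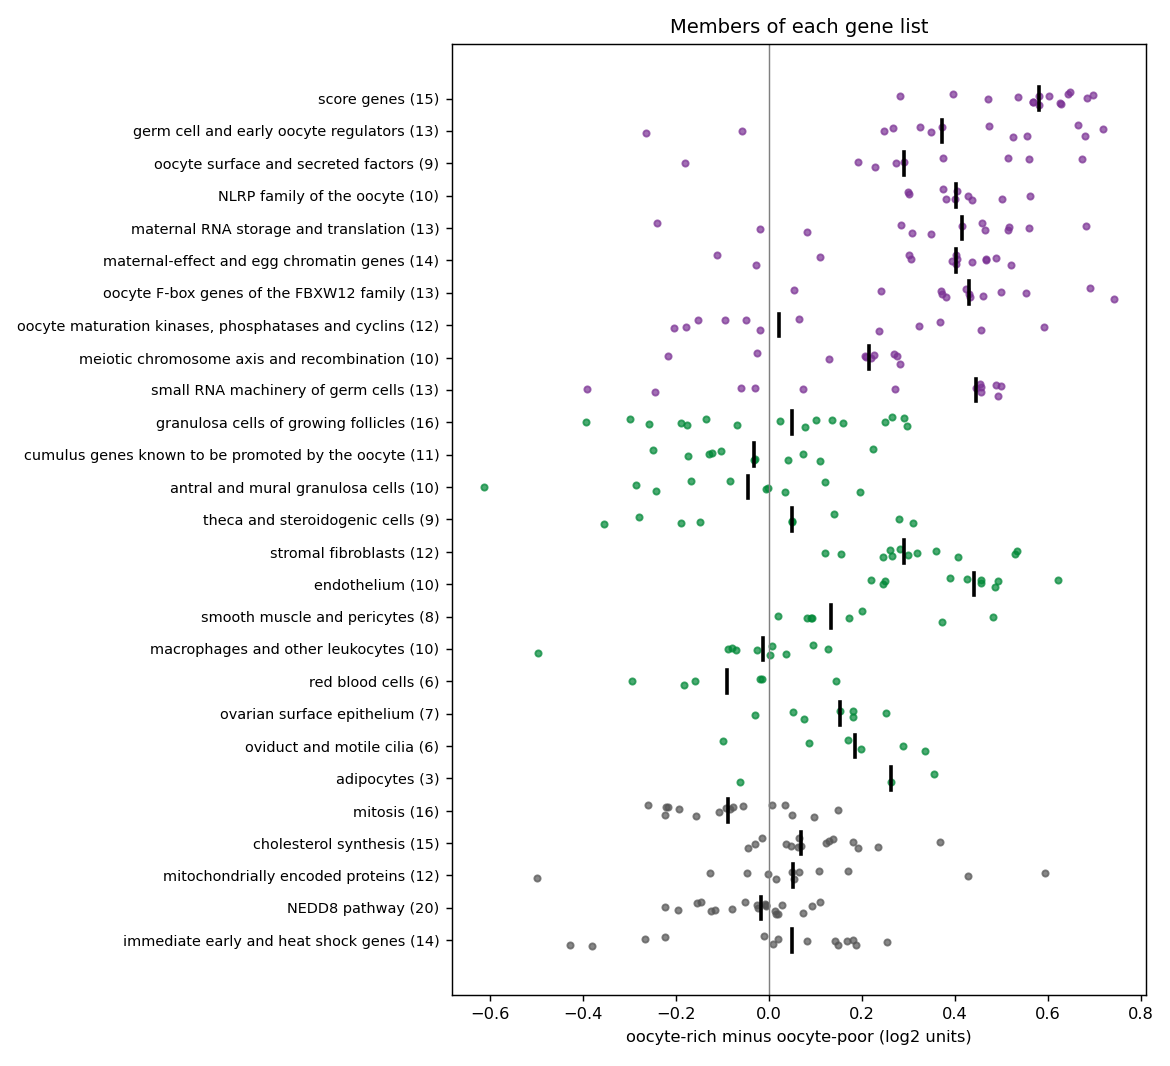
Oocyte-rich minus oocyte-poor difference (log2 units) of every compared member of each list, with the number of members in brackets; black bars are list medians. Purple lists are oocyte genes, green lists other cells of the ovary and grey lists cell processes; the score genes, which set the classes, stand in the top line.

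The regulators of germ cells and early oocytes had a median difference of 0.37, with 4 of 13 compared members higher by the rule and 0 lower. Sohlh1, a basic helix-loop-helix factor of primordial and primary oocytes, measured 5.28, 5.43, 5.94, 6.68 and 5.88 against 5.03, 5.17, 5.15, 5.15 and 5.11. Its difference of 0.72 was led by control 2, and control 3, the library with the highest score, was the lowest of the oocyte-rich class. Figla, the E-box factor that drives zona genes, was likewise highest in control 2, at 5.42, 5.28, 5.39, 6.15 and 5.26 against 5.23, 4.90, 5.12, 5.07 and 4.79. Lhx8, a LIM-homeobox factor of the same stage, differed by 0.52. Pou5f1, the pluripotency factor that the oocyte also expresses, differed by 0.66. Taf4b, a subunit of a germ cell transcription factor complex, and Foxo3, which holds primordial follicles dormant, had differences of -0.26 and -0.06 and overlapped. In this list control 2 was highest for 4 genes (Figla, Lhx8, Sohlh1 and Ddx4), although for only 2 of the 15 score genes.

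The small RNA machinery of germ cells showed the same leading library for part of its members. Its median difference was 0.45, and 6 of 13 compared members were higher by the rule. Piwil2, a PIWI protein that binds piRNAs, measured 5.49, 5.54, 5.65, 6.43 and 5.57 against 5.25, 5.37, 5.42, 5.28 and 5.08, with control 2 well above the rest. Mael and Mov10l1, 2 further factors of the pathway, were also highest in control 2, as were Sycp1, Smc1b, Stag3 and Msh4 among the 10 compared meiotic axis and recombination genes. List members given for their highest library or for a small or opposite difference were chosen after their values were seen, except those the naming rule picked. Tdrd1 and Tdrd9, tudor-domain proteins, differed by 0.46 and 0.49, and Gtsf1 by 0.49. Tdrd5 differed by -0.39 with overlap. Of the meiotic axis list, Syce2 alone was higher by the rule, by 0.28, with the classes 0.012 apart at the border. A further 5 members of this list were below the minimum mean. Syce2 and Gtsf1 were no longer counted with the length slope described below removed (0.255 and 0.42). The same held with the length and GC slopes removed (0.27 and 0.46).

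Genes for the storage and translation of maternal RNA had a median difference of 0.41, and 7 of 13 were higher by the rule. Ybx2, the germ cell Y-box protein that packages messages, measured 10.21, 9.95, 9.94, 10.07 and 9.87 against 9.63, 9.36, 9.29, 9.21 and 9.13. All its oocyte-rich values lay above all its oocyte-poor values, with a difference of 0.68. Eif4e1b, an oocyte form of the cap-binding protein, differed by 0.56, Zar1l by 0.52 and Pabpc1l, the poly(A)-binding protein of oocytes, by 0.51. Zfp36l2, which promotes decay of messages and is also expressed outside oocytes, had a difference of -0.24 with overlap.

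The maternal-effect and egg chromatin genes had a median of 0.40, and 8 of 14 were higher by the rule. Zfp57, which protects imprints, differed by 0.52, the kinase cofactor Tcl1 by 0.49, and Omt2a and the oocyte linker histone H1foo by 0.47 each. Zfp57 was at 11.38, 11.08, 10.82, 10.91 and 10.79 against 10.71, 10.35, 10.44, 10.54 and 10.34. Control 3 was highest, and Uba3 cKO 2 and control 5 were 0.08 apart at the border of the classes. The DNA-modifying enzymes Tet3 and Dnmt3a measured -0.03 and -0.11, with overlap.

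Of the surface and secreted factors 5 of 9 were higher by the rule, with a list median of 0.29. Astl, the protease ovastacin that cleaves the egg coat after fertilisation, measured 10.88, 10.97, 11.10, 11.03 and 10.88 against 10.36, 10.45, 10.37, 10.37 and 9.95, a difference of 0.67. Izumo1r (Juno), the sperm receptor, differed by 0.56, Oosp1 by 0.51 and Gpr3, the receptor that maintains meiotic arrest, by 0.37. For Astl the highest library was Uba3 cKO 4, and for Izumo1r it was control 3.

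All 10 compared NLRP genes and all 13 F-box genes of the FBXW12 family had the higher mean in the oocyte-rich class, with medians of 0.40 and 0.43. By the rule 1 NLRP gene (Nlrp9b, 0.50) and 6 F-box genes were higher. Fbxw18 measured 9.75, 10.01, 9.64, 9.71 and 9.82 against 9.25, 9.62, 8.74, 8.73 and 8.88. Control 4, an oocyte-poor library, stood 0.02 below the lowest oocyte-rich library for this gene and above the other 4 of its class by more than 0.3. Fbxw26 followed the same order at the border, with 8.56 in control 4 against 8.66 in Uba3 cKO 4. Some members of both families are similar copies in genome clusters, so reads may be split between these copies and their single values are uncertain.

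Kinases, phosphatases and cyclins of oocyte maturation had a median of 0.023, and 2 of 12 were higher by the rule. Mos, the kinase that upholds arrest at the second meiotic metaphase, measured 9.56, 9.01, 9.09, 9.15 and 8.88 against 8.79, 8.46, 8.48, 8.64 and 8.35, a difference of 0.59. Fbxo43, an inhibitor of the anaphase-promoting complex, differed by 0.32. Ccnb1 and Cdk1, which dividing granulosa cells also express, had differences of -0.05 and -0.09.

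Outside the lists the 12 higher genes with the largest difference among those with a mean of at least 8 were Dppa5a, Slc30a3, Khdc1a, Hmga1, Vrtn, Oas1h, Speer5-ps1, Khdc1c, Pla2g4c, Ccno, Rbpms2 and Pramef12, from 0.70 down to 0.53. Dppa5a, an RNA-binding protein of pluripotent cells, measured 8.65, 8.86, 8.79, 8.59 and 8.79 against 8.13, 8.27, 8.05, 8.04 and 7.67. Slc30a3, a zinc transporter, differed by 0.67, the chromatin protein Hmga1 by 0.62, Ccno (cyclin O) by 0.55 and the RNA-binding Rbpms2 by 0.53. The classes were 0.32 apart at the border for Dppa5a and 0.35 for Slc30a3. With the length slope described below removed Dppa5a was no longer counted (0.61), while with the length and GC slopes removed it was (0.645). Hmga1 was counted under neither correction (0.61 and 0.53). Khdc1a, Khdc1c, Oas1h, Pramef12 and Speer5-ps1 belong to families of similar copies or are pseudogenes, so their values are uncertain.

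The other cells of the ovary were described in 12 lists, of which 108 members were compared. By the rule 0 were higher and 4 (3.70%) were lower, against 2.41% and 1.18% of all genes compared. Of these 4, 3 are expressed in granulosa cells of growing follicles. Gja1 (connexin 43), which forms gap junctions between granulosa cells, measured 15.90, 15.85, 15.89, 15.90 and 15.88 against 16.13, 16.11, 16.08, 16.10 and 16.28. The oocyte-rich libraries lay within 0.05 of each other and below all oocyte-poor ones, with a difference of -0.26. Cdh2, the adhesion protein N-cadherin, was lower by 0.39 and the nuclear receptor Nr5a2 by 0.30. Gja1 and Nr5a2 were no longer counted once the length slope described below was removed (-0.219 and -0.246), or both slopes (-0.17 and -0.20), and Nr5a2 was not counted without control 3 (-0.22). The granulosa list as a whole had a median of 0.051, with 9 of 16 members higher and 7 lower in mean; Amh, the hormone of growing follicles, and Foxl2, a granulosa identity factor, had differences of 0.30 and 0.29 with overlap. These 2 genes were named after their values were seen.

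The 4th gene was Grb14, an adaptor of the insulin receptor in the antral and mural granulosa list. Its levels were 13.05, 13.07, 12.31, 12.82 and 12.49 against 13.40, 13.15, 13.35, 13.52 and 13.39. Uba3 cKO 4 was lowest, and control 4 was the closest to the oocyte-rich class. Grb14 was still counted with the length slope described below removed (-0.60), but not with the length and GC slopes removed (-0.52). Of the cumulus genes known to be promoted by the oocyte's secreted factors, 0 of 11 were counted, with 4 higher and 7 lower in mean and a median of -0.032. Pfkp, a glycolytic enzyme, measured -0.25 and Mvk, an enzyme of sterol synthesis, 0.22, both with overlap.

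Markers of vessels and stroma were higher in mean in the oocyte-rich class, without any gene counted by the rule. All 10 endothelial genes had the higher mean, with a median of 0.44. Eng (endoglin) measured 8.98, 8.92, 9.32, 8.82 and 9.35 against 8.14, 8.55, 9.03, 8.30 and 8.26, and control 1, an oocyte-poor library, stood above 3 of the oocyte-rich ones. All 12 stromal genes had the higher mean, with a median of 0.29; Col1a1, a chain of type I collagen, measured 11.27, 11.53, 12.17, 11.64 and 12.10 against 10.89, 11.25, 11.99, 10.99 and 10.92. Control 1 again lay among the high libraries.

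These 2 lists moved with the classes among the Uba3 cKO libraries more than among the control libraries. The endothelial median was 0.71 within Uba3 cKO and 0.12 within control libraries, and the stromal median was 0.66 and -0.057. Other lists went either way, with 0.40 and -0.052 for smooth muscle and pericytes but 0.062 and 0.15 for the surface epithelium. Among oocyte lists the NLRP medians were 0.56 and 0.30, and those of the surface and secreted factors 0.24 and 0.38. The difference between the genotypes in this respect was not tested. The score genes, which set the classes, also differed more within Uba3 cKO (median 0.75) than within control libraries (0.50). Among the oocyte-poor controls the mean level of the stromal list was 10.3 in control 1, against 9.90 in control 4 and 9.48 in control 5. The log2 of the summed levels of the endothelial list ran from 11.2 to 11.7 in the oocyte-rich and from 10.8 to 11.4 in the oocyte-poor libraries, and that of the stromal list from 14.3 to 14.9 and from 13.8 to 14.8. No member of either list was at or below 0. Their part in the difference of the oocyte genes was not tested.

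The remaining lists of other cells had 0 members counted. Medians were 0.13 for smooth muscle and pericytes (Rgs5 0.48, Notch3 0.37), 0.050 for theca (Mgarp -0.35, Hhip 0.31) and -0.012 for leukocytes (Lyz2 -0.50, C1qc 0.13). Red blood cell genes had a median of -0.089 (Hbb-bs -0.29, Alas2 -0.18), surface epithelium 0.15 (Krt18 0.25, Krt19 0.18), oviduct and cilia 0.18 (Ovgp1 0.34, Dnah5 0.29), and adipocytes 0.26 over 3 compared members (Cfd 0.36, Plin1 0.26). Ranges of single libraries overlapped between the classes for each of these genes.

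Among the processes, 1 of 77 compared members was counted: Fdft1 (squalene synthase) of cholesterol synthesis, higher by 0.37. The mitosis list had a median of -0.087, with Kif20a at -0.26 and Bub1 at -0.22. Proteins encoded by the mitochondrial genome had a median of 0.052 over 12 genes. Control 3 was the highest library for 10 of the 12, and the list's mean level was 11.98 there and between 11.34 and 11.66 in the other libraries; without control 3 the list's median was -0.068. Single genes differed in direction: mt-Co2 was at 7.70, 6.37, 7.05, 7.26 and 7.03 against 6.41, 6.63, 6.52, 6.50 and 6.38, while mt-Nd3 had a difference of -0.50. Uba3 cKO 1 was the lowest of all 10 libraries for mt-Co2. The NEDD8 pathway had a median of -0.016 over 20 genes (Cul4b -0.22, Cul3 -0.20), and immediate early and heat shock genes 0.050, with Egr1 at -0.43 and Fos at -0.38.

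Outside the lists the lower genes with the largest difference at a mean of at least 8 included Myocd, Adamts5, Mef2c, Abcd2, Serpinb1a, Nlrp10, Usp33, Tent5a, Gjc3, Dhx9 and Itga2, from -0.60 to -0.46. Myocd, a coactivator of serum response factor best known in smooth muscle, measured 9.05, 9.40, 9.23, 9.54 and 9.42 against 10.03, 9.65, 10.08, 9.86 and 10.01. Adamts5, a protease of the extracellular matrix, measured 8.94, 8.89, 8.89, 8.97 and 8.96 against 9.44, 9.44, 9.79, 9.41 and 9.54. The oocyte-rich libraries differed by less than 0.1 for Adamts5, and the classes were 0.44 apart at the border. Mef2c, a MADS-box factor, was lower by 0.55, the peroxisomal transporter Abcd2 by 0.52 and the protease inhibitor Serpinb1a by 0.52. Myocd was lower while smooth muscle genes as a list were not.

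In Usp33 and Dhx9 a single library carried much of the difference. Usp33, a deubiquitinase, was at 8.55 in control 3 and between 9.52 and 9.70 in the other oocyte-rich libraries, and without control 3 its difference of -0.50 was -0.29. The RNA helicase Dhx9, which has a pseudogene that may take part of its reads, was at 11.16 in control 3 and its -0.46 became -0.30.

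Length and base composition of the transcript differed between the higher and the lower genes. The median length of the longest annotated transcript was 2412 bases for the higher genes, 5018 for the lower genes and 3251 for all genes compared, and the median GC content was 53.0%, 44.9% and 49.6%. In each library the slope of level, relative to the gene's mean, on the doubling of transcript length was -0.179, -0.074, 0.069, 0.010 and 0.049 in the oocyte-rich and 0.062, 0.010, 0.042, -0.011 and 0.022 in the oocyte-poor libraries. Control 3, the library with the highest oocyte score, had the most negative length slope and the highest GC slope (0.179 per 10 percentage points), and Uba3 cKO 1, second in score, the second lowest length slope. The length slopes of the classes overlapped, and Uba3 cKO 4, an oocyte-rich library, had the highest. GC slopes ran from -0.011 to 0.179 in the oocyte-rich and from -0.112 to 0.0025 in the oocyte-poor libraries, also with overlap. The median level of a library ran from 6.41 to 6.44 in the oocyte-rich and from 6.29 to 6.37 in the oocyte-poor class, without overlap. With the libraries re-centred on their medians over the genes compared, 336 genes were higher and 200 lower, of which 325 and 181 were original.

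With the length slope of each library removed, 428 genes were higher and 89 lower, of which 289 and 69 were among the original ones. With length and GC slopes removed the counts were 400 and 68, of which 241 and 50 were original; the second correction was added after seeing the data. The median difference of the 107 oocyte genes was 0.37 with the length slope removed and 0.40 with both removed, against 0.37 without a correction. Gja1 measured -0.22 and -0.17 after the 2 corrections, Myocd -0.54 and -0.55, and Adamts5, whose longest transcript has 10790 bases, -0.48 and -0.46. Of the 9 oocyte lists the surface and secreted factors had the median that moved most with the length slope removed, from 0.29 to 0.21, and the NLRP genes with both slopes removed, from 0.40 to 0.51. Of the 68 named genes counted by the rule, 14 were no longer counted with the length slope removed and 14 with both removed, among them Zp3, Sohlh1, Figla, Gja1 and Nr5a2 under each. What part length and GC have in the lower genes was not tested.

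**Figure D4:**
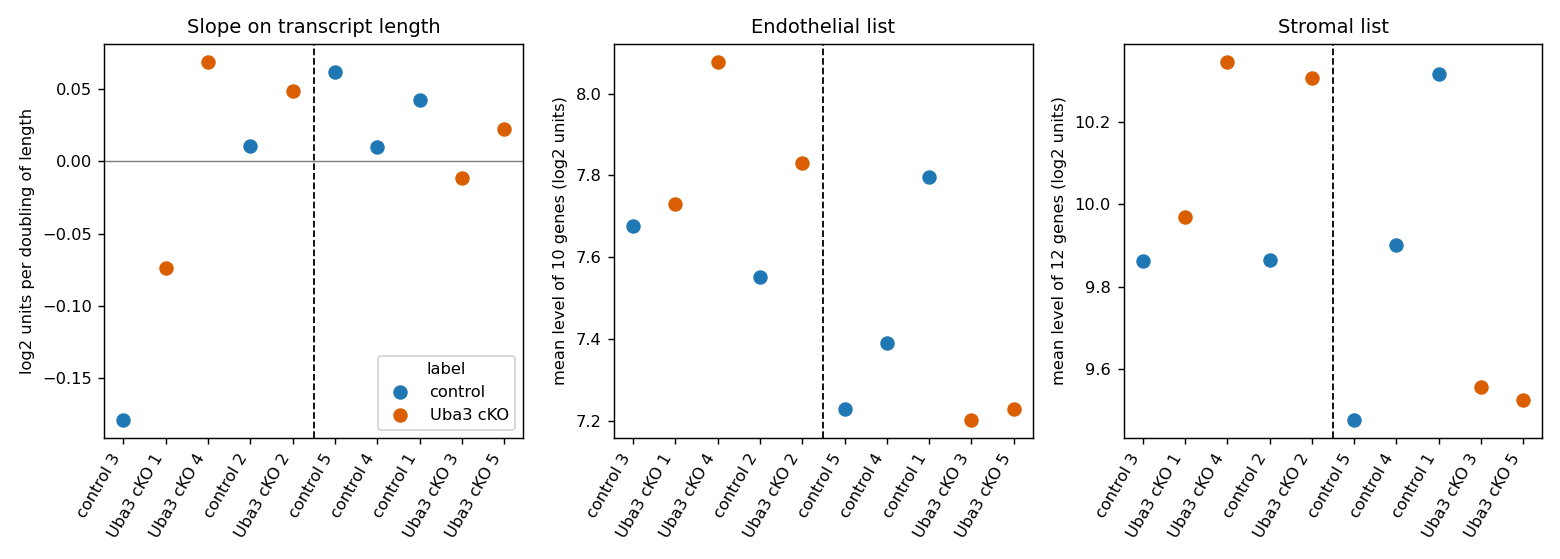
Each point is 1 library in falling order of oocyte score, blue for control and orange for Uba3 cKO, with the dashed line between the classes. Left: slope of level on transcript length (log2 units per doubling), lowest in control 3 at -0.179; middle and right: mean level of the endothelial and stromal lists (log2 units), where control 1 lies as high as the oocyte-rich libraries.

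Whether the oocyte score follows genotype is a question that the division of the libraries did not use. Uba3 itself was at 10.17, 10.09, 9.88, 10.37 and 10.09 in control 1 to 5 and at 10.12, 10.13, 10.12, 10.03 and 10.22 in Uba3 cKO 1 to 5. The ranges overlapped, with a difference of 0.0032 (95% interval -0.17 to 0.18; adjusted p = 0.9999, limma), so the level in whole ovary did not separate the labels. The deleted part of the gene is not given in the sources used here, and this level checks nothing about recombination in oocytes.

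The oocyte score was 10.70 ± 0.30 in control and 10.69 ± 0.39 in Uba3 cKO libraries (SD, n = 5 each). The difference was -0.0057 (exact two-sided permutation test, p = 0.968; the smallest p that 5 against 5 allows is 0.00794). Both genotypes had libraries at the top of the range, and the lowest library was at 10.40 among controls and 10.17 among Uba3 cKO, so no difference was detectable within this spread.

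The oocyte score was then used as a covariate in the comparison of genotypes, to describe how the standard error changed with the score in the fit. What the spread of the score reflects was not tested. With the score in the fit, 0 of 15614 genes (0%) passed an adjusted p of 0.05 in limma, with 435 genes at an unadjusted p under 0.05 and a smallest adjusted p of 0.306. Without it, 0 of 15614 (0%) passed, with 280 at an unadjusted p under 0.05 and a smallest adjusted p of 0.617. The median standard error of the genotype difference was 0.145 without and 0.0875 with the score over the 107 oocyte genes, and 0.0881 and 0.0812 over all genes. A narrower error for genes that vary with the score is what the covariate takes out by construction. The 95% interval of the genotype difference lay within 0.5 log2 units of 0 for 86 of the 107 oocyte genes without the score and for 100 with it. Of the 107, 5 (4.67%) had an unadjusted p under 0.05 with the score and 2 (1.87%) without, against 2.79% and 1.79% of all genes. The fitted difference with the score was above 0 for 63 and below 0 for 44, against 7831 and 7783 of all 15614 genes.

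The 4 genes with the smallest p in the fit with the score were Dip2c, Styk1, Nptx2 and Serpinb12, each with an adjusted p of 0.306 (limma). Without the score the adjusted p was 0.617 for Dip2c and 0.9999 for each of Styk1, Nptx2 and Serpinb12 (limma). Dip2c, a member of the disco-interacting protein family, was at 9.83 and 10.03 in the 2 oocyte-rich control libraries, 10.26, 9.94 and 10.30 in the other control libraries, and between 9.20 and 9.66 in Uba3 cKO. Its genotype difference was -0.63 (SE 0.10) with the score and -0.62 (SE 0.11) without it. The 2 genotypes did not overlap, yet the adjusted p missed the threshold. With the length slope of the library as a further covariate Dip2c passed, at an adjusted p of 0.0295 with the score and 0.0138 without it (limma). In the fits that held no slope as covariate 0 genes passed, a replicate block and each library left out in turn included.

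Styk1, a receptor-like kinase, differed by 0.55 between genotypes (SE 0.092 with the score, 0.13 without). Its levels in falling order of score were 7.0, 7.24, 6.96, 6.63 and 6.82 in control 3, 2, 5, 4 and 1, and 7.52, 7.81, 7.47, 7.37 and 7.23 in Uba3 cKO 1, 4, 2, 3 and 5. Uba3 cKO 5, the library with the least oocyte signal, was level with control 2, which is oocyte-rich. Nptx2, a neuronal pentraxin, differed by -0.49 (SE 0.085 with the score, 0.14 without) and Serpinb12, a protease inhibitor, by 0.43 (SE 0.076 and 0.11). For these 3 genes the oocyte-rich libraries of each genotype had the higher mean.

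**Figure D5:**
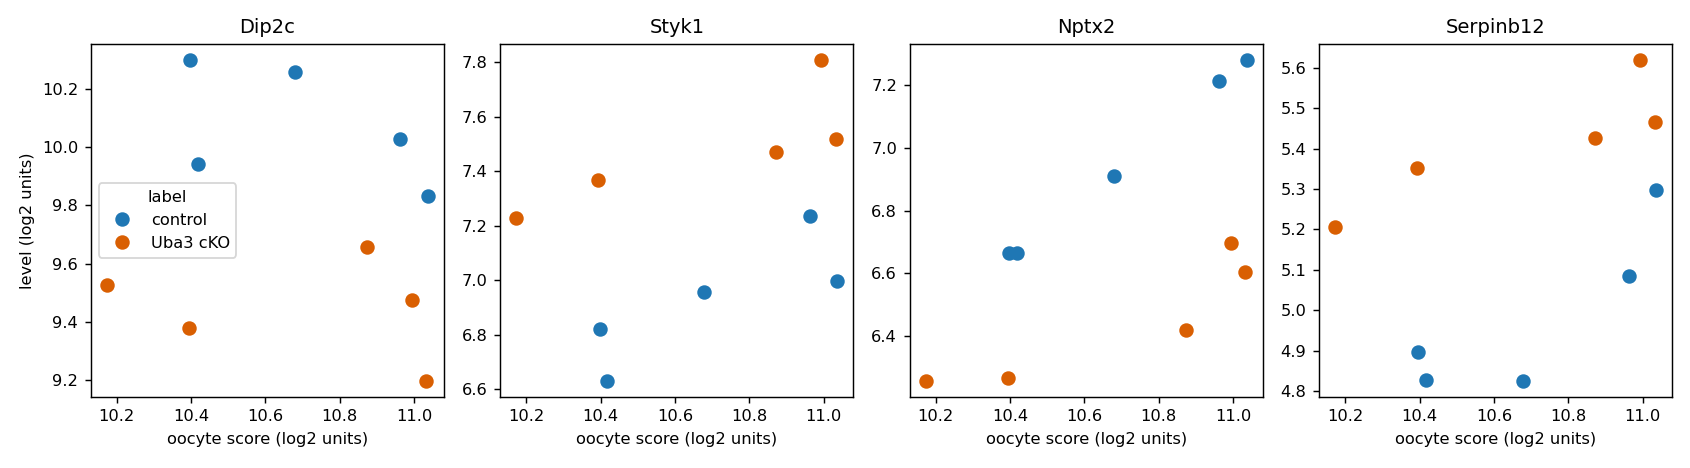
Level (log2 units) of the 4 genes with the smallest p in the genotype comparison, against the oocyte score of the library; blue points are the 5 control and orange points the 5 Uba3 cKO libraries. Dip2c is lower in every Uba3 cKO library than in every control library. For Styk1, Nptx2 and Serpinb12 the levels of the genotypes overlap. A separation at a given score is what the choice of these genes selected for. None passed an adjusted p of 0.05 with or without the score (limma).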

How the data were processed

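The labels' protocols give PicoPure RNA isolation, TruSeq libraries and NovaSeq sequencing of 5 control and 5 Uba3 cKO whole ovaries. The authors normalized the levels between libraries before they deposited 1 table of 22891 genes on a log2 scale (the unit is read from the values, -0.21 to 20.19, since the table does not name its transform). The submitters' processing notes name fastp, STAR, featureCounts, DESeq2 and build GRCm39, without versions or roles. Depth is unknown, so no counting interval was computed.

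Gene symbols were matched for 22188 identifiers. Transcript lengths and GC content came from GENCODE annotation of an earlier build, and slopes were fitted over the 9182 genes whose mean reached 8 log2 units. The rich and poor classes were described by means, SDs, overlap and a minimum difference of 0.25, with no test. Genotypes were compared with limma 3.58.1 (mean-variance trend, Benjamini-Hochberg adjustment over all genes compared, threshold 0.05) in R 4.3.3, with and without the oocyte score as covariate; the fit was tested on simulated data. The score was compared by an exact permutation test.

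The classes, members and lists were chosen with earlier results of these data known. Of 309 list members outside the score 306 were matched; Nlrp4d, Nlrp7 and Stra8 were not analysed here. Named genes are the score genes, Uba3, up to 4 members of each list that met the counting rule (or the 2 with the largest difference), up to 12 genes outside the lists in each direction, and the 4 genes with the smallest p in the genotype fit. One gene that this rule names is not reported here. The alternatives were other filters, re-centring, slope corrections, other scores, a replicate block and leaving out libraries. Same-numbered replicates of the 2 genotypes are not known to be related.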

Additional observations from a re-analysis of the deposited data

Results flagged for a closer look

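Within each genotype group of 5 libraries, 268 sets of values (the score, the slopes, list levels and named genes) were examined for a library standing far from the other 4 relative to the range of the group. A gap above Dixon's 95% critical value was found in 10 sets (3.73%); chance alone gives about 1 in 20.

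Control 3 had a length slope of -0.179 log2 units per doubling of transcript length, against 0.010 to 0.062 in the other control libraries. Control 2 stood apart in 4 sets: Sohlh1 at 6.68 (5.03 to 5.28 in the other controls), Piwil2 at 6.43 (5.25 to 5.49), the mean level of the cholesterol synthesis list at 9.46 (9.18 to 9.25) and Pfkp at 9.19 (9.51 to 9.57). Control 1 stood apart in the mean level of the antral and mural granulosa list, 10.14 against 9.48 to 9.65, and in the globin gene Hbb-bs, 11.22 against 9.87 to 10.20. Uba3 cKO 4 stood apart in the mean level of the oviduct and motile cilia list, 5.23 against 4.59 to 4.66, with its members Ovgp1 at 6.10 (4.37 to 4.80) and Dnah5 at 4.92 (3.88 to 4.15). Sohlh1 and Piwil2 were counted as higher in the oocyte-rich class. No cause of these values was tested.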

How the results depend on the processing

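The 376 higher genes numbered between 303 and 428 under other filters, re-centring, slope corrections and other scores, and the 184 lower genes between 178 and 200 under the same settings except the slope corrections, which gave 89 (length) and 68 (length and GC). Fewer values have to stand apart where libraries are left out, although the minimum difference stays. Without Uba3 cKO 2 and control 5, the libraries beside the border, 607 genes were higher and 247 lower. Within control libraries the counts were 1181 and 1266, and within Uba3 cKO libraries 1389 and 456. Leaving out each library in turn gave 380 to 528 higher and 176 to 291 lower genes, the last without Uba3 cKO 4. The score difference between genotypes ranged from -0.091 to 0.124 when each library was left out, and was above 0 without control 2 (0.060), control 3 (0.079), Uba3 cKO 3 (0.069) or Uba3 cKO 5 (0.124), with exact permutation p of 0.571 to 0.873 over all 10. The genotype fits called 0 genes (0 to 0 over libraries left out) except with the length slope, or length and GC slopes, as covariates, where 1 gene passed in each of the 4 fits (adjusted p 0.0138 to 0.0295, limma). Pairing by replicate number as a block gave 0 genes in both fits (smallest adjusted p 0.869 with the score and 0.9999 without) and a score difference of -0.0057 (exact permutation p = 0.938). The deviations of same-numbered libraries correlated at -0.34 to 0.31, and only replicate 5 correlated best with its own number. The sign of the difference, which their choice largely fixes, changed for 0 of 68 named genes counted by the rule, and it changed under at least 1 setting for 4 of 33 named genes not counted, for 1 of 9 oocyte list medians (maturation kinases) and for 12 of 17 other list medians, the stromal and mitochondrially encoded ones included. Over these settings 35 values of named genes and 21 list medians moved beyond the replicate spread, and 1985 and 519 did not. Depth is unknown, so which low genes it limits cannot be given.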
